A study of Mus musculus with 4 samples.

Results

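Genomic imprinting makes a gene be read mainly from the copy of 1 parent. The marks that set this are laid down as DNA methylation in the germ line at imprinting control regions, and each control region acts on a cluster of genes, the imprinted domain. Within a domain, genes read from the paternal copy often lie beside genes read from the maternal copy, and some of them share enhancers, boundaries or a silencing non-coding RNA. Many imprinted genes act on fetal growth and on the developing nervous system. A set of 38 imprinted genes from 17 such domains, outside the *Grb10* and *Peg13* domains, was followed in cervical motor neurons (MNs) that had or lacked *Patz1*. The genes were picked by symbol from the 23420 genes of the count files, and they were grouped by domain and by the parental copy that is usually read, as known from textbooks. By that grouping, 22 are paternally expressed, 14 are maternally expressed and 2 (*Gnas* and *Inpp5f*) make transcripts of more than 1 kind. Gene counts of this sort carry no information on the parental copy itself, so alleles were not measured.

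The study compared MNs made from WT E14 mouse embryonic stem cells (E14 mESCs) with MNs made from *Patz1* -/- cells (*Patz1* KO) of the same line, and asked which genes depend on PATZ1, a zinc finger protein that binds G-rich DNA. Each genotype had 2 libraries of total RNA depleted of ribosomal RNA. Cells of both genotypes were kept with LIF and 2i, grown as embryoid bodies for 2 days and then given 1 µM all-trans retinoic acid and 0.5 µM smoothened agonist (SAG), which together direct cells to cervical MNs. The KO was made with CRISPR/Cas9 in clonal lines, and which line each library came from is not in the labels. Differences between lines therefore cannot be told apart from the genotype. The sample titles name ESCs, whereas source and cell type name MNs. Pluripotency genes were near the bottom of the range, with a summed level over 10 genes of 6.31 to 12.7 CPM (read counts scaled to TMM library size) and with *Utf1* and *Fgf4* at 0 in all 4 libraries, and all 10 MN markers were detected.

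Total counts went from 14769104 to 23881522 per library, and the 2 libraries of each genotype differed by more than sampling noise. *Patz1* itself had 1363 and 1499 reads across WT against 1154 and 714 across *Patz1* KO (a value per library, in the order of the replicates, as for every gene below), a log2 fold change (*Patz1* KO over WT) of -1.04, so its transcripts were still counted in both KO libraries. Read numbers are raw and follow the depth of each library, with *Patz1* KO replicate 1 the deepest, while CPM, fold changes and the overlap of groups are scaled for depth. In the whole table, edgeR's quasi-likelihood test called 6837 of 14269 genes at a Benjamini-Hochberg adjusted p below 0.05, which is 47.9%, with 24.1% called higher and 23.8% called lower in *Patz1* KO. Every p named edgeR's below is from this test, and SE is the standard error of a log2 fold change from the same fit. A further measure, both libraries of a genotype lying above both of the other, was met by 74.2% of all genes tested. A call is thus common in this comparison, and each count of imprinted genes below stands beside these shares. Markers of several cell types also moved with the genotype. MN markers summed to 1374 and 1424 CPM in WT and 1917 and 2014 CPM in *Patz1* KO, with 9 of 10 called higher. Markers of mesenchyme and neural crest summed to 204 and 226 CPM in WT and 42.7 and 49.1 CPM in *Patz1* KO, with 9 of 12 called lower. The 2 called higher were the neural crest genes *Foxd3* (log2 fold change 2.51) and *Sox10* (0.91). *Tfap2a*, also of neural crest, did not pass the test, so the fall of the sum does not describe these neural crest genes. Markers of primitive and visceral endoderm went from 71.0 and 81.6 CPM to 31.1 and 34.5 CPM, with 7 of the 10 tested called lower and 1 (*Apoe*) higher, and markers of cycling cells went from 2283 and 2390 CPM to 1310 and 1312 CPM, with 9 of 10 called lower. For pluripotent cells, the markers summed to 9.80 and 12.7 CPM in WT and 6.31 and 8.34 CPM in *Patz1* KO. Of the 4 tested, *Klf4* (log2 fold change -1.78) and *Dppa5a* (-1.71) were called lower. *Nanog*, with 57 and 75 reads across WT against 46 and 59 across *Patz1* KO, and *Zfp42* did not pass the test. The part of these shifts in the results on imprinted genes was not tested. In such bulk libraries, fewer cells of a type and less RNA per cell cannot be told apart.

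The imprinted genes changed in both directions. Of the 38, 34 had enough counts to be tested, and 23 of these 34 were called, 16 higher and 7 lower, beside 24.1% and 23.8% in the whole table. Groups did not overlap for 27 of the 34, beside 74.2%. The median log2 fold change was 0.18, against -0.0014 over all genes tested, and the median absolute value was 0.45, against 0.34. A fall of at least 1 on the log2 scale was seen in 6 genes (7.27% of all genes tested) and a rise of at least 1 in 2 (5.66%). The 6 that fell this far, *Slc38a4*, *Plagl1*, *Peg3*, *Igf2*, *Kcnq1ot1* and *Airn*, and the 2 that rose, *Dlk1* and *Nap1l5*, are all paternally expressed. Among the 20 paternally expressed genes tested, 8 were called higher and 6 lower, with a median of 0.083 and a range from -2.23 to 1.97. Among the 12 maternally expressed genes tested, 6 were called higher and 1, *Igf2r*, lower, with a median of 0.18 and a range from -0.42 to 0.98. Without WT replicate 2, the number of maternally expressed genes called was 4, with 3 of them higher. Whether the 2 parental groups differ was not tested.

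**Figure D1:**
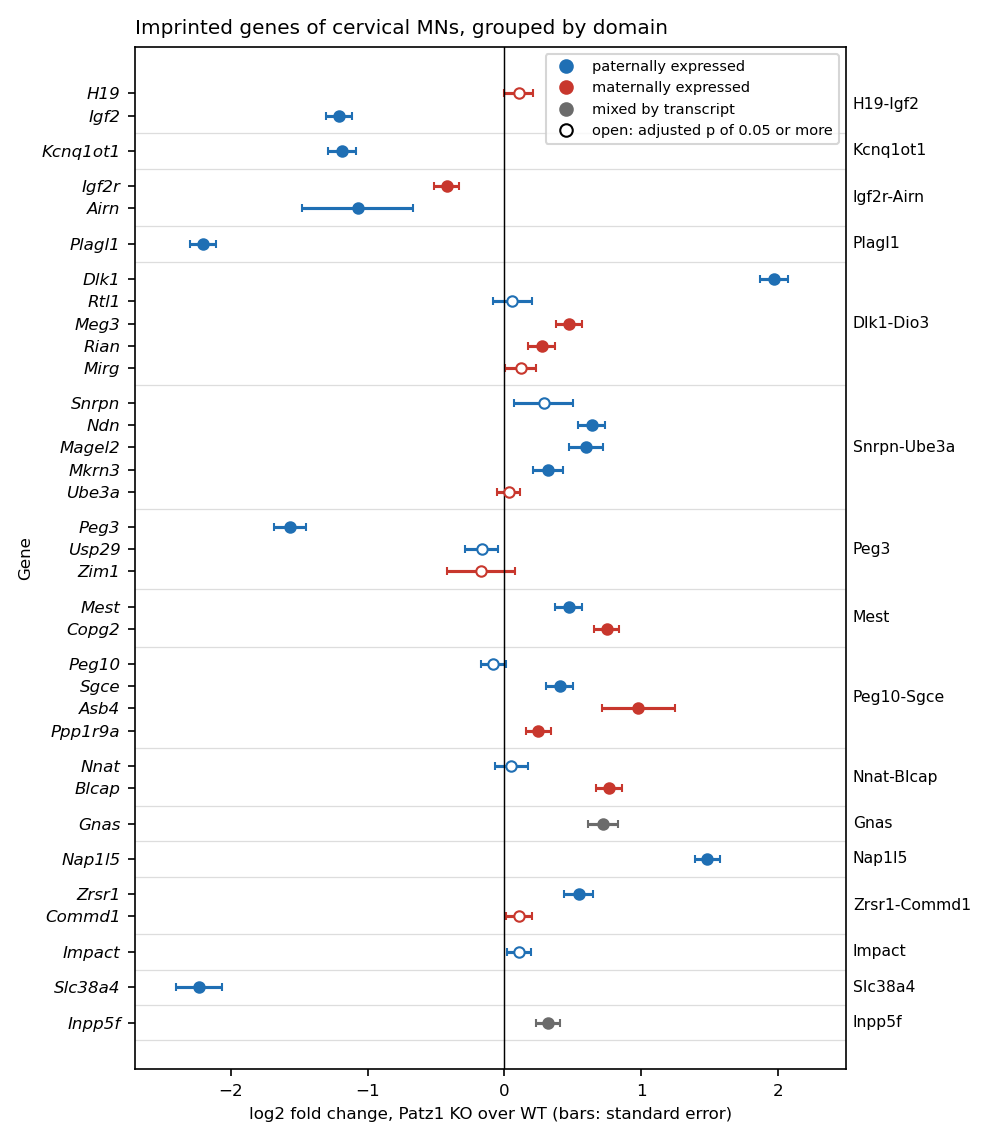
Log2 fold change (*Patz1* KO over WT) of the 34 imprinted genes tested, on the x axis, with the standard error (SE) as bars; genes are on the y axis, grouped by domain. Blue is paternal, red maternal and grey mixed expression, and open points have an adjusted p of 0.05 or more. The largest falls are at -2.23 (*Slc38a4*) and -2.20 (*Plagl1*) and the largest rise is at 1.97 (*Dlk1*).

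Signs were then compared within domains. Of the 17 domains, 9 had at least 2 of the 38 genes tested and 5 had at least 2 called. In all 5 of these, the called genes went the same way. They were lower in the *Igf2r*-*Airn* domain and higher in the *Dlk1*-*Dio3*, *Snrpn*-*Ube3a*, *Mest* and *Peg10*-*Sgce* domains, while 0 domains held called genes of both directions by edgeR's quasi-likelihood test, whether p was adjusted or not. Paternally and maternally expressed genes were both among the called in *Igf2r*-*Airn*, *Dlk1*-*Dio3*, *Mest* and *Peg10*-*Sgce*. DESeq2's Wald test, which did not call *Airn*, gave 0 of 4 domains with adjusted and with unadjusted p. The unison held for the chosen 38 genes and did not extend to all genes of these regions. With 59 listed neighbours added, 12 domains had at least 2 called genes, and 4 of them (*Kcnq1ot1*, *Snrpn*-*Ube3a*, *Gnas* and *Inpp5f*) held both directions. Some of these neighbours are imprinted themselves. The paternally expressed *Peg12* (log2 fold change -0.89) and *Nespas* (-0.98) and the maternally expressed *Cdkn1c* (0.30) went against called genes of their domain.

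Levels were compared between genes per kb of exon. In WT, *Nnat* had the highest level at 695 CPM per kb, followed by *H19* (283 CPM per kb), *Ndn* (107 CPM per kb), *Mest* (99.0 CPM per kb) and *Igf2* (65.3 CPM per kb). In *Patz1* KO, *Nnat* (720 CPM per kb) and *H19* (305 CPM per kb) stayed at the top, and *Ndn* (167 CPM per kb), *Mest* (137 CPM per kb), *Gnas* (90.3 CPM per kb) and *Nap1l5* (75.3 CPM per kb) lay above *Igf2* (28.3 CPM per kb). The changes were thus not limited to weakly expressed genes.

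**Figure D2:**
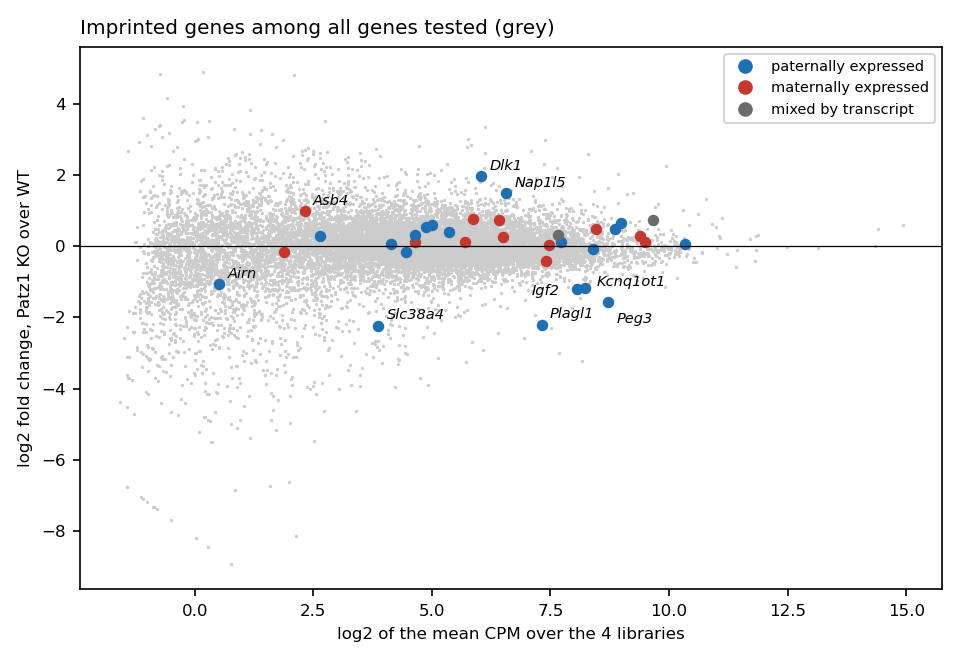
The 34 imprinted genes tested (coloured points) among all 14269 genes tested (small grey points), with log2 of the mean CPM over the 4 libraries on the x axis and the log2 fold change (*Patz1* KO over WT) on the y axis. *Peg3*, *Igf2*, *Kcnq1ot1* and *Plagl1* lie low among the genes of high CPM, while *Airn* has the lowest mean CPM of the imprinted genes tested. CPM is not scaled for exon length here, and *Kcnq1ot1*, with 93.1 kb of exon, had 4.44 CPM per kb in WT.

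The promoters of the genes with a fold change of at least 1 on the log2 scale, a single RefSeq start and a call that did not depend on the test or on 1 library are shown first, since these genes carry the changes described below. For each, the 150 bases before the RefSeq start are given, 5′ to 3′ on the strand of the gene, from RefSeq on GRCm38.p6. Capitals mark matches, on either strand, to TGCCGC, the letters that ZFP57, a protein that keeps imprints, reads when methylated, and to GGGGNGGGG, a G-rich run of the kind known for PATZ1.
*Kcnq1ot1*, chr7:143296548-143296697, minus strand: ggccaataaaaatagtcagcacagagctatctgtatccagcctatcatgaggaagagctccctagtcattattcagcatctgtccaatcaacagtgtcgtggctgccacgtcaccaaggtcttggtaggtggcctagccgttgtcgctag
*Plagl1*, chr10:13090682-13090831, plus strand: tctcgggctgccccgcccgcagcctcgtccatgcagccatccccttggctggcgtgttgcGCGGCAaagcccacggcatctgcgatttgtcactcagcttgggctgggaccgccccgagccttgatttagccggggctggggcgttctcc
*Dlk1*, chr12:109452673-109452822, plus strand: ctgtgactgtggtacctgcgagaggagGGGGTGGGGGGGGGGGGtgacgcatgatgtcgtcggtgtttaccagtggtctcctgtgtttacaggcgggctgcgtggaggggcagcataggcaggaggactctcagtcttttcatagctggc
*Peg3*, chr7:6730420-6730569, minus strand: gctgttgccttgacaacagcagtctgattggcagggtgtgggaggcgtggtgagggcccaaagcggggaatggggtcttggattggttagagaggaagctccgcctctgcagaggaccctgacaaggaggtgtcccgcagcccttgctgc
*Nap1l5*, chr6:58907127-58907276, minus strand: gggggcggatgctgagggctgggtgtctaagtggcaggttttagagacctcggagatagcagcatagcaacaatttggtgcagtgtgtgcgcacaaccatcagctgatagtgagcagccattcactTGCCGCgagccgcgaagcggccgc
The promoter of *Dlk1*, the gene with the largest rise, holds overlapping G-rich matches (5 start positions), *Nap1l5* and *Plagl1* hold 1 TGCCGC match each in these 150 bases, and the promoters of *Peg3* and *Kcnq1ot1* hold neither. G-rich matches were not particular to *Dlk1*, since over the longer RefSeq windows of 300 bases *Nap1l5* held 5, as *Dlk1* did, and *Plagl1* held 1. RefSeq windows from 250 bases before to 50 after the start were matched for 33 of the 38 genes, in 50 windows. TGCCGC was found in 22.0% of these windows and in 11.6% of all 32817 RefSeq windows, and GGGGNGGGG in 34.0% and 22.4%. Windows also differ in CpG, which TGCCGC contains. The median over all windows was 7 CpG, while those of the genes shown held 9 (*Kcnq1ot1* and *Dlk1*), 13 (*Peg3*), 17 (*Nap1l5*) and 26 (*Plagl1*). The shares were not matched for CpG, so no enrichment of a motif is read from them. Windows of 1 gene can overlap, so these shares are descriptions, and a match is not a measured binding site.

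*Igf2* and *H19* form the classic imprinted pair of distal chromosome 7. *Igf2*, the paternally expressed insulin-like growth factor 2 (GRCm38 chr7:142650766-142666816, minus strand), had 5518 and 6004 reads across WT against 3606 and 2938 across *Patz1* KO. Both WT libraries were well above both *Patz1* KO libraries, at 374 ± 5.06 CPM in WT and 162 ± 18.7 CPM in *Patz1* KO (mean ± SD of 2 libraries), and *Igf2* fell by 1.21 on the log2 scale (SE 0.097, edgeR adjusted p = 2.38e-08). Its annotated exons overlap those of the antisense gene *Igf2os*. *H19*, the maternally expressed non-coding RNA that hosts *Mir675* (GRCm38 chr7:142575529-142578143, minus strand), had 10167 and 11303 reads across WT against 17469 and 13059 across *Patz1* KO. The KO libraries lay above the WT libraries, but the difference did not pass the test (log2 fold change 0.11, edgeR adjusted p = 0.428). The 2 genes are known to share enhancers under the control of 1 region bound by CTCF. *H19* had 1.84 and 1.88 counts for each *Igf2* count in WT and 4.84 and 4.44 in *Patz1* KO.

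Further along chromosome 7, *Kcnq1ot1* is a paternally expressed antisense RNA known to silence its neighbours in cis. It lies on chromosome 7 from 143203458 to 143296549 on the minus strand and had 5689 and 7087 reads across WT against 4247 and 3160 across *Patz1* KO. Its level was 414 ± 45.1 CPM in WT and 182 ± 9.34 CPM in *Patz1* KO (mean ± SD of 2 libraries), a log2 change of -1.19 (SE 0.0995, edgeR adjusted p = 3.76e-08). Its exon overlaps *Kcnq1* on the other strand, but *Kcnq1* itself had 2 or 3 counts in each library. *Cdkn1c*, a maternally expressed inhibitor of cyclin-dependent kinases in the same domain that is not among the 38, had 2292 and 2329 reads across WT against 4258 and 3272 across *Patz1* KO and was called higher (log2 fold change 0.30, edgeR adjusted p = 0.00903). Without WT replicate 1 or without WT replicate 2 that call was lost, with an adjusted p of up to 0.162. The counts of *Cdkn1c* for each count of *Kcnq1ot1* were 0.403 and 0.329 in WT and 1.00 and 1.04 in *Patz1* KO. Listed neighbours of the domain differed in both directions. *Cars*, a transfer RNA synthetase gene, had 1313 and 1349 reads across WT against 1278 and 810 across *Patz1* KO and was called lower (log2 fold change -0.77, edgeR adjusted p = 2.68e-06), in each of the 12 alternatives as well. *Cd81*, a tetraspanin gene, and *Dhcr7*, a cholesterol synthesis gene, were called higher (0.60 and 0.49). *Tssc4* (0.0095), *Nap1l4* (-0.034) and *Osbpl5* (0.23) did not pass the test. *Phlda2*, a maternally expressed regulator of placental growth, had 2 and 8 reads across WT against 5 and 4 across *Patz1* KO, and the groups overlapped. *Ascl2*, a maternally expressed transcription factor of the placenta, had 0 and 3 reads across WT against 8 and 8 across *Patz1* KO, which makes it at least 2.07-fold higher against a limit of 3 counts per WT library. Both had too few counts for the test, and in a fit of all genes with a count *Ascl2* had an edgeR adjusted p of 0.156. Such limits cover counting error only, as the reads carry no molecular identifiers.

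**Figure D3:**
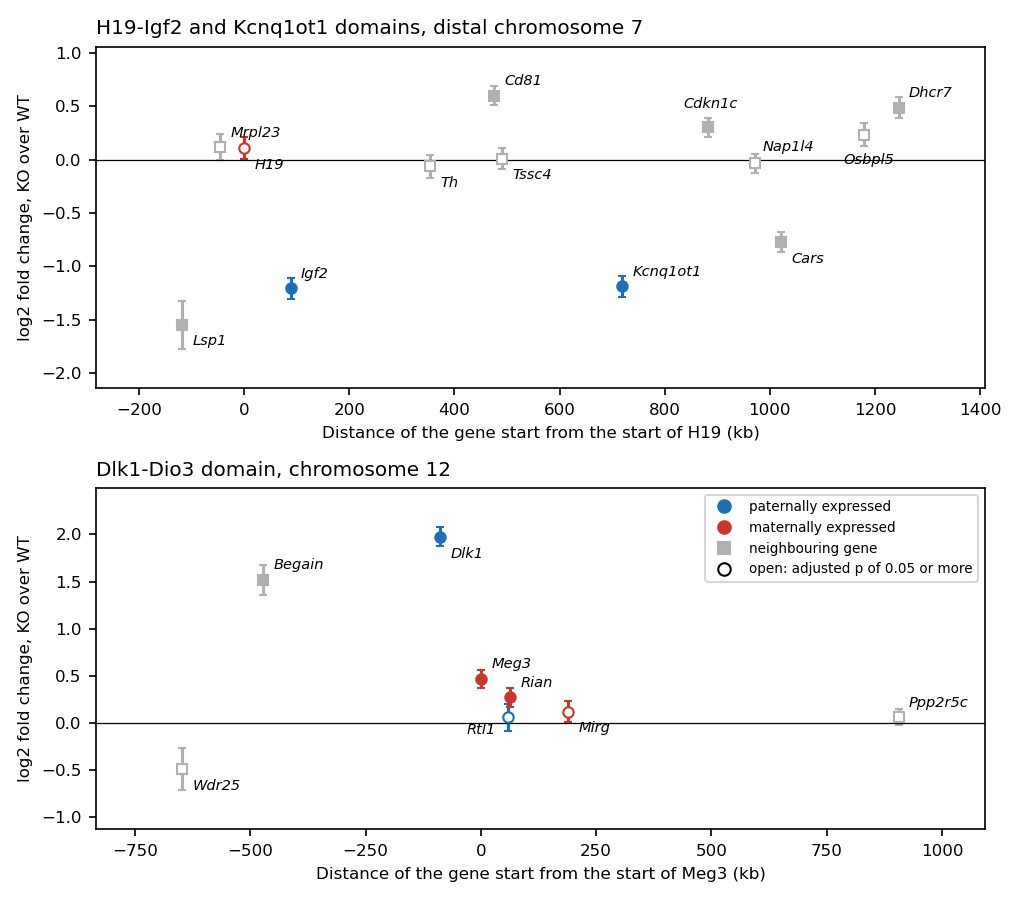
Log2 fold change (*Patz1* KO over WT, y axis, bars: standard error) of the tested genes along the *H19*-*Igf2* and *Kcnq1ot1* domains (top) and the *Dlk1*-*Dio3* domain (bottom), against the distance of each gene start from that of *H19* or *Meg3* in kb (x axis). Circles are imprinted genes, grey squares are neighbours and open symbols have an adjusted p of 0.05 or more: *Igf2* (-1.21) and *Kcnq1ot1* (-1.19) lie far below *H19* (0.11), and *Dlk1* (1.97) lies far above *Meg3* (0.47).

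The *Igf2r*-*Airn* domain on chromosome 17 was the one in which the called genes of both parental groups fell. *Igf2r*, the maternally expressed receptor that clears IGF2 from the cell surface (GRCm38 chr17:12682406-12769664, minus strand), had 2808 and 3197 reads across WT against 3803 and 2241 across *Patz1* KO. All KO values were below the WT values after scaling, at 195 ± 8.87 CPM in WT and 145 ± 16.4 CPM in *Patz1* KO (mean ± SD of 2 libraries), and *Igf2r* fell by 0.42 on the log2 scale (edgeR adjusted p = 0.00123). *Airn*, the paternally expressed antisense RNA known to silence *Igf2r* in many tissues, had 38 and 21 reads across WT against 18 and 19 across *Patz1* KO. Its level was low, 1.93 ± 0.869 CPM in WT and 0.937 ± 0.276 CPM in *Patz1* KO (mean ± SD of 2 libraries), with a log2 fold change of -1.07 (SE 0.41, edgeR adjusted p = 0.0378). This call was lost with DESeq2's Wald test (adjusted p = 0.192), without WT replicate 1 (log2 fold change -0.52, edgeR adjusted p = 0.558) and without *Patz1* KO replicate 1 (-0.75, adjusted p = 0.17). *Slc22a3*, an organic cation transporter of the same domain known to be imprinted in placenta, had 7 and 12 reads across WT against 0 and 0 across *Patz1* KO, at least 4.05-fold lower against a limit of 3 counts per KO library. It had too few counts for the test, and in a fit of all genes with a count its edgeR adjusted p was 3.80e-04.

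Of the single imprinted genes, *Plagl1* and *Slc38a4* had the largest falls. *Plagl1* encodes a zinc finger transcription factor that restrains the cell cycle and is known to regulate other imprinted genes, among them *Igf2* and *H19*. It lies on GRCm38 chr10:13060504-13131694 (plus strand), and it had 3626 and 4452 reads across WT against 1342 and 977 across *Patz1* KO. Both KO libraries were far below both WT libraries. Its level went from 262 ± 25.8 CPM in WT to 56.8 ± 2.04 CPM in *Patz1* KO (mean ± SD of 2 libraries), a log2 change of -2.20 (SE 0.0959, edgeR adjusted p = 1.07e-11). *Slc38a4*, an amino acid transporter of fetal liver and placenta on GRCm38 chr15:96994820-97055956 (minus strand), had 317 and 425 reads across WT against 110 and 98 across *Patz1* KO, or 24.0 ± 3.85 CPM in WT and 5.19 ± 0.923 CPM in *Patz1* KO (mean ± SD of 2 libraries). On the log2 scale it changed by -2.23 (SE 0.168, edgeR adjusted p = 1.00e-08). The WT libraries of *Slc38a4* were likewise above the KO libraries, and the fall of *Plagl1* stayed between -2.30 and -2.09 and that of *Slc38a4* between -2.40 and -2.04 over the fits without 1 library. Of the 3 listed neighbours of *Plagl1*, *Phactr2* had 346 and 465 reads across WT against 165 and 110 across *Patz1* KO (log2 fold change -1.97, edgeR adjusted p = 1.15e-08), *Ltv1* fell by 0.40 (adjusted p = 0.00653, or 0.121 without WT replicate 2) and *Sf3b5* did not pass the test (-0.12, adjusted p = 0.333). *Slc38a1* and *Slc38a2*, related transporters beside *Slc38a4*, fell by 0.78 and 0.41. Without WT replicate 2 the call of *Slc38a2* was lost (adjusted p = 0.0563).

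In the *Peg3* domain of proximal chromosome 7, one gene changed while its divergent partner did not pass the test. *Peg3* encodes a large zinc finger protein, paternally expressed and known for roles in growth and maternal care. It lies on GRCm38 chr7:6703892-6730431 (minus strand), with 8913 and 10538 reads across WT against 5788 and 3121 across *Patz1* KO. The level was 630.2 ± 45.5 CPM in WT and 212 ± 37.2 CPM in *Patz1* KO (mean ± SD of 2 libraries), a log2 change of -1.57 (SE 0.117, edgeR adjusted p = 9.07e-09). *Usp29*, a paternally expressed deubiquitinase gene read in the opposite direction, starts 164 bases from the start of *Peg3* in RefSeq. It had 332 and 384 reads across WT against 467 and 374 across *Patz1* KO, groups that overlapped, and a log2 fold change of -0.17 (SE 0.12, edgeR adjusted p = 0.277). For each *Peg3* count, 0.0373 and 0.0365 *Usp29* counts were found in WT and 0.0808 and 0.120 in *Patz1* KO. *Zim1*, a maternally expressed zinc finger gene, had 51 and 71 reads across WT against 91 and 54 across *Patz1* KO, and its log2 fold change of -0.17 did not pass the test (adjusted p = 0.595).

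**Figure D4:**
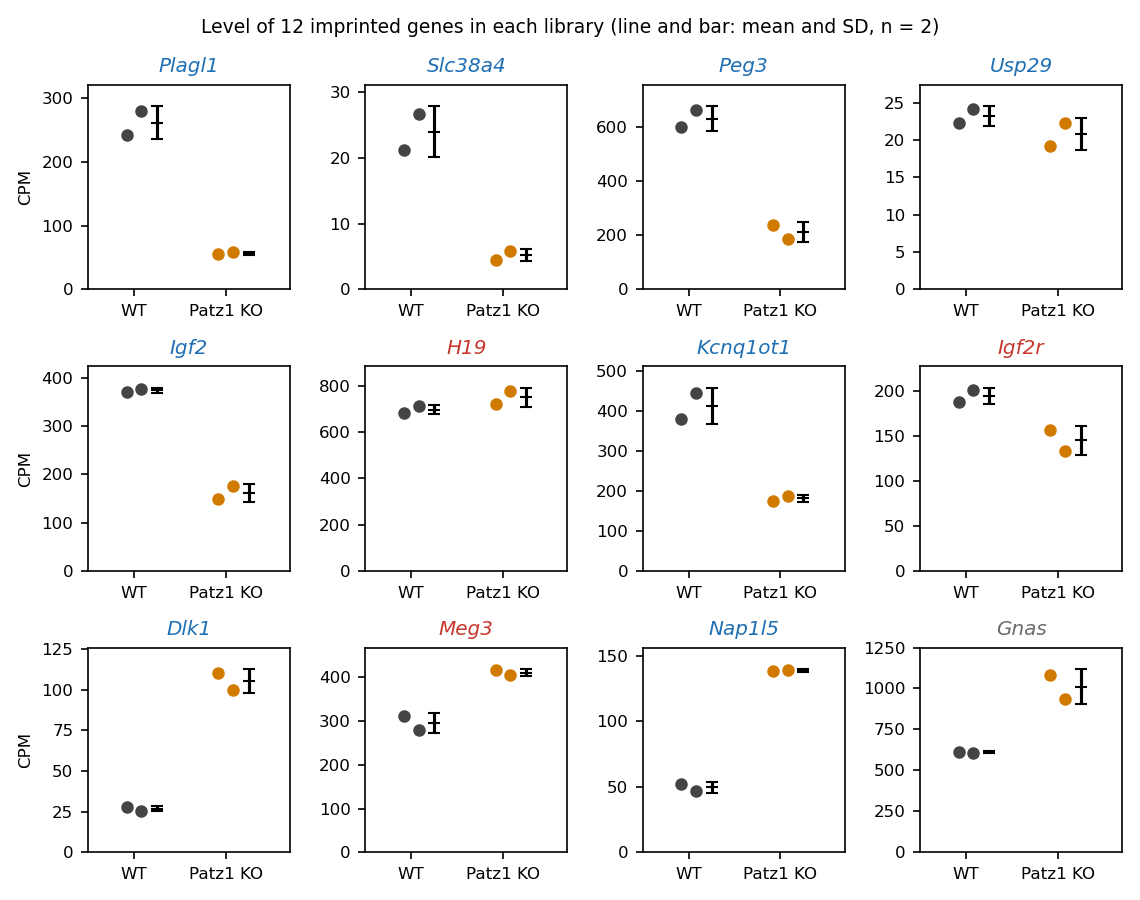
Level of 12 imprinted genes in CPM (y axis, each panel with its own scale from 0) in the 2 WT and 2 *Patz1* KO libraries (x axis); points are libraries and the line with its bar is the mean and SD. *Plagl1*, *Slc38a4*, *Peg3*, *Igf2* and *Kcnq1ot1* are lower in both KO libraries, *Dlk1* and *Nap1l5* are higher in both, and the groups of *Usp29* overlap.

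The *Dlk1*-*Dio3* domain of chromosome 12 holds protein-coding genes read from the paternal copy and a long run of non-coding RNAs read from the maternal copy. *Dlk1*, a paternally expressed membrane protein of the Notch ligand type (GRCm38 chr12:109452823-109463336, plus strand), had 416 and 408 reads across WT against 2673 and 1676 across *Patz1* KO. Both KO libraries were far above both WT libraries, at 27.9 and 25.6 CPM in WT and 110.2 and 99.9 CPM in *Patz1* KO, and the log2 fold change of 1.97 (SE 0.10, edgeR adjusted p = 8.12e-11) was the largest rise among the 34 genes tested. The maternally expressed RNAs moved less. *Meg3*, a nuclear non-coding RNA, had 4630 and 4446 reads across WT against 10054 and 6767 across *Patz1* KO and a log2 fold change of 0.47 (edgeR adjusted p = 5.68e-04), a call lost without WT replicate 2 (adjusted p = 0.0602). *Rian*, the host of a cluster of C/D box small nucleolar RNAs, had 9190 and 9535 reads across WT against 17808 and 12328 across *Patz1* KO and a log2 fold change of 0.27 (adjusted p = 0.0345). Its call was lost with scaling to library size alone (adjusted p = 0.0703), with the replicate number as a block (0.0545) and without WT replicate 1 (0.22) or WT replicate 2 (0.316). *Mirg*, a host of microRNAs, had 365 and 369 reads across WT against 629 and 434 across *Patz1* KO and did not pass the test (log2 fold change 0.12, adjusted p = 0.397).

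*Rtl1*, a paternally expressed gene derived from a retrotransposon, had 257 and 278 reads across WT against 496 and 259 across *Patz1* KO, and its groups overlapped (log2 fold change 0.06, edgeR adjusted p = 0.757). Its exon lies opposite the maternal microRNA genes *Mir127*, *Mir136*, *Mir431*, *Mir432*, *Mir433* and *Mir434*, whose reads could not be told apart from its own without knowledge of the strand setting. *Dio3*, the thyroid hormone deiodinase at the far end, had 11 and 5 reads across WT against 8 and 10 across *Patz1* KO and had too few counts for the test. *Meg3* had 11.1 and 10.9 counts for each *Dlk1* count in WT and 3.76 and 4.04 in *Patz1* KO. Outside the imprinted run, *Begain*, a neighbour of *Dlk1* that encodes a synaptic scaffold protein, had 113 and 106 reads across WT against 551 and 299 across *Patz1* KO (log2 fold change 1.52, edgeR adjusted p = 6.09e-07).

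MicroRNA genes of the domains were counted only as far as reads of total RNA fell on their hairpins, so mature microRNAs were not measured. Of 56 such genes in the files, 14 had more than 10 counts in a library, 7 were tested and 11 were at 0 in all libraries. A 0 is not read as absence. Some of these genes, such as *Mir675* in *H19* and *Mir770* in *Meg3*, lie in exons of other genes, and how shared reads were counted is not known. EdgeR's quasi-likelihood test called 0 higher and 1 lower, with adjusted and with unadjusted p, beside 47.9% of all genes tested called with adjusted p. DESeq2's Wald test called 0 higher and 1 lower with adjusted p and 0 higher and 2 lower with unadjusted p. The called one was *Mir296* of the *Gnas* domain, with 78 and 74 reads across WT against 23 and 53 across *Patz1* KO, a log2 fold change of -1.36 (edgeR adjusted p = 0.00517). It rests in part on 1 library, since the log2 fold change was -0.64 without *Patz1* KO replicate 1 and -2.37 without *Patz1* KO replicate 2. The other one with an unadjusted p below 0.05 in DESeq2's test, *Mir376b* of the *Dlk1*-*Dio3* domain, had 4 and 4 reads across WT against 0 and 0 across *Patz1* KO, too few for the edgeR test, and in a fit of all genes with a count its edgeR adjusted p was 0.0386. *Mir335*, inside *Mest*, had 14 and 14 reads across WT against 20 and 26 across *Patz1* KO (adjusted p = 0.557). Both mature arms of *Mir296* and *Mir335* are given from RefSeq on GRCm38.p6, the first for its call and the second for its place in *Mest*, with the seed (bases 2 to 8) in capitals.
mmu-miR-296-5p, chr2:174267093-174267113, minus strand: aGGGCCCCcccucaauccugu
mmu-miR-296-3p, chr2:174267058-174267079, minus strand: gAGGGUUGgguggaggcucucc
mmu-miR-335-5p, chr6:30741314-30741336, plus strand: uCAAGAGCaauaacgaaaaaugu
mmu-miR-335-3p, chr6:30741354-30741375, plus strand: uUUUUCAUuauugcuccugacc
None of the 4 shares its seed with another arm of the 14 genes. The other 12, all in the *Dlk1*-*Dio3* domain, are *Mir341*, *Mir543*, *Mir300*, *Mir382*, *Mir134*, *Mir668*, *Mir453*, *Mir377*, *Mir541*, *Mir409*, *Mir3070a* and *Mir1188*. They had 1 to 27 counts in a library, and those tested had adjusted p values from 0.1 (*Mir541*) to 0.922 (*Mir1188*) in edgeR's quasi-likelihood test.

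The *Snrpn*-*Ube3a* domain, the mouse counterpart of the Prader-Willi and Angelman region, rose at *Ndn*, *Magel2* and *Mkrn3*. *Ndn*, a paternally expressed MAGE protein gene of postmitotic neurons (GRCm38 chr7:62346569-62350262, plus strand), had 5829 and 6389 reads across WT against 15775 and 9788 across *Patz1* KO, or 396 ± 7.41 CPM in WT and 617 ± 47.5 CPM in *Patz1* KO (mean ± SD of 2 libraries). On the log2 scale it changed by 0.64 (SE 0.101, edgeR adjusted p = 5.39e-05). *Magel2*, another paternally expressed MAGE gene, had 430 and 350 reads across WT against 988 and 605 across *Patz1* KO, or 25.4 ± 4.84 CPM in WT and 38.4 ± 3.31 CPM in *Patz1* KO (mean ± SD of 2 libraries), a log2 change of 0.60 (SE 0.125, edgeR adjusted p = 7.04e-04). For both genes the KO libraries lay above the WT libraries. *Mkrn3*, a paternally expressed ubiquitin ligase gene, had 330 and 359 reads across WT against 681 and 466 across *Patz1* KO and a log2 fold change of 0.32 (adjusted p = 0.0236). This call was lost with scaling to library size alone (adjusted p = 0.0568), with DESeq2's Wald test (0.1), without WT replicate 1 (0.162) and without WT replicate 2 (0.131).

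*Peg12*, a paternally expressed gene next to *Mkrn3* that is not among the 38, went the other way, with 948 and 1007 reads across WT against 806 and 594 across *Patz1* KO and a log2 fold change of -0.89 (edgeR adjusted p = 7.53e-07). At the other end of the domain, the groups overlapped. *Snrpn*, which encodes a splicing protein and shares exons with *Snurf*, had 70 and 103 reads across WT against 148 and 129 across *Patz1* KO and a log2 fold change of 0.29 (adjusted p = 0.287). Its level in WT was 2.59 CPM per kb, and *Snurf* had 0 and 0 reads across WT against 0 and 1 across *Patz1* KO. How reads shared by both genes were counted is not known, so the level of *Snrpn* and its lack of a call are uncertain. *Ube3a*, a ubiquitin ligase gene that is maternally expressed in neurons, had 2521 and 2866 reads across WT against 4249 and 3056 across *Patz1* KO and a log2 fold change of 0.03 (adjusted p = 0.78). Exons of the antisense RNA *Snhg14* overlap those of *Ube3a*.

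Chromosome 6 holds the *Mest*, *Peg10*-*Sgce* and *Nap1l5* domains. In the *Mest* domain, both genes rose: *Mest*, a paternally expressed hydrolase of mesoderm (GRCm38 chr6:30723547-30748465, plus strand), had 5756 and 6288 reads across WT against 12738 and 9365 across *Patz1* KO and a log2 fold change of 0.47 (edgeR adjusted p = 6.73e-04). *Copg2*, a maternally expressed coat protein gene, had 937 and 1023 reads across WT against 2645 and 1754 across *Patz1* KO, or 63.6 ± 1.01 CPM in WT and 107 ± 3.20 CPM in *Patz1* KO (mean ± SD of 2 libraries), and a log2 change of 0.75 (SE 0.0890, adjusted p = 2.26e-06). KO libraries of both genes were above the WT libraries. The ends of the 2 genes overlap on opposite strands. Among their neighbours, *Cpa4*, a carboxypeptidase gene, had 27 and 16 reads across WT against 115 and 48 across *Patz1* KO (log2 fold change 1.47, edgeR adjusted p = 0.00178).

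In the *Peg10*-*Sgce* domain, the 2 paternally expressed genes start beside each other and are read in opposite directions. *Peg10*, derived from a retrotransposon and needed in the placenta, had 4945 and 5693 reads across WT against 7724 and 5606 across *Patz1* KO, and its groups overlapped (log2 fold change -0.08, edgeR adjusted p = 0.504). *Sgce*, the epsilon-sarcoglycan gene linked to myoclonus dystonia, had 536 and 557 reads across WT against 1172 and 766 across *Patz1* KO and a log2 fold change of 0.41 (adjusted p = 0.00228). *Asb4*, a maternally expressed gene of a ubiquitin ligase adaptor, had 44 and 61 reads across WT against 204 and 80 across *Patz1* KO, or 3.39 ± 0.624 CPM in WT and 6.59 ± 2.58 CPM in *Patz1* KO (mean ± SD of 2 libraries). Its log2 fold change of 0.98 (SE 0.267, edgeR adjusted p = 0.00561) was 0.49 without *Patz1* KO replicate 1, which ended the call (adjusted p = 0.126). *Ppp1r9a*, the neurabin gene, maternally expressed, had 1213 and 1339 reads across WT against 2456 and 1603 across *Patz1* KO and a log2 fold change of 0.25 (adjusted p = 0.0265). That call was lost with scaling to library size alone (adjusted p = 0.085), with DESeq2's Wald test (0.0612), without WT replicate 1 (0.24) and without WT replicate 2 (0.145).

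*Nap1l5*, a paternally expressed gene of the nucleosome assembly protein family, lies within an intron of *Herc3* on chromosome 6 (GRCm38 chr6:58905233-58907076, minus strand). It had 784 and 742 reads across WT against 3355 and 2341 across *Patz1* KO. Its level went up from 49.6 ± 4.22 CPM in WT to 139 ± 0.834 CPM in *Patz1* KO (mean ± SD of 2 libraries), a log2 change of 1.49 (SE 0.0934, edgeR adjusted p = 8.90e-10). Both KO libraries were far above both WT libraries. The host gene *Herc3*, an E3 ligase gene, had 259 and 273 reads across WT against 1050 and 638 across *Patz1* KO, a log2 fold change of 1.24 (adjusted p = 1.19e-07), and the next gene, *Fam13a*, had 40 and 40 reads across WT against 149 and 95 across *Patz1* KO and a log2 fold change of 1.19 (edgeR adjusted p = 4.18e-04). Reads from introns of *Herc3* could add to *Nap1l5*, and this was not tested. Per kb of exon, the mean level of *Herc3* was 1.89 CPM in WT and 4.45 CPM in *Patz1* KO. That of *Nap1l5* was 26.9 CPM per kb in WT and 75.3 CPM per kb in *Patz1* KO. Not scaled for exon length, the counts of *Herc3* for each count of *Nap1l5* were 0.331 and 0.368 in WT and 0.313 and 0.273 in *Patz1* KO.

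Chromosome 2 holds the *Nnat*-*Blcap* and *Gnas* domains. *Nnat*, a paternally expressed proteolipid of the endoplasmic reticulum that marks new neurons and lies in an intron of *Blcap*, had 19200 and 19936 reads across WT against 29349 and 23889 across *Patz1* KO. Its groups overlapped, and the log2 fold change was 0.05 (edgeR adjusted p = 0.748). *Blcap*, maternally expressed in brain, had 633 and 693 reads across WT against 1811 and 1205 across *Patz1* KO, or 43.0 ± 0.769 CPM in WT and 73.2 ± 2.02 CPM in *Patz1* KO (mean ± SD of 2 libraries), a log2 change of 0.77 (SE 0.0938, edgeR adjusted p = 3.04e-06), with the KO libraries above the WT libraries.

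*Gnas*, which encodes the stimulatory G protein alpha subunit and, from other starts, imprinted transcripts of either parental copy (GRCm38 chr2:174284320-174346744, plus strand), had 9174 and 9671 reads across WT against 26320 and 15697 across *Patz1* KO, or 612 ± 5.42 CPM in WT and 1010.2 ± 106 CPM in *Patz1* KO (mean ± SD of 2 libraries). On the log2 scale it changed by 0.72 (SE 0.111, edgeR adjusted p = 3.76e-05). The counts are per gene and do not separate its transcripts. *Nespas*, the paternally expressed antisense RNA at the same place, had 243 and 246 reads across WT against 207 and 126 across *Patz1* KO and a log2 fold change of -0.98 (edgeR adjusted p = 4.09e-05), although its exons overlap those of *Gnas*. There were 37.7 and 39.2 *Gnas* counts for each *Nespas* count in WT and 127 and 124 in *Patz1* KO. *Npepl1*, a neighbouring peptidase gene, had 205 and 194 reads across WT against 160 and 97 across *Patz1* KO and a log2 fold change of -1.06 (adjusted p = 5.69e-05).

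The remaining genes lie in the domains of *Zrsr1*, *Impact*, *Inpp5f* and *Rasgrf1*. *Zrsr1*, a paternally expressed retrogene of a splicing factor inside *Commd1* on chromosome 11, had 359 and 372 reads across WT against 834 and 585 across *Patz1* KO, or 23.7 ± 0.499 CPM in WT and 34.6 ± 0.336 CPM in *Patz1* KO (mean ± SD of 2 libraries). Its KO libraries lay above its WT libraries, with a log2 change of 0.54 (SE 0.106, edgeR adjusted p = 4.08e-04). Its host *Commd1*, a regulator of copper handling that is maternally expressed, had 716 and 822 reads across WT against 1261 and 932 across *Patz1* KO, and the log2 fold change of 0.11 did not pass the test (adjusted p = 0.379). Exons of *Zrsr1* overlap those of *Commd1* on the other strand. *Impact*, a paternally expressed inhibitor of the kinase GCN2, had 2953 and 3315 reads across WT against 5302 and 3679 across *Patz1* KO (log2 fold change 0.11, adjusted p = 0.319). *Inpp5f*, a phosphatase gene with a paternally expressed short form in brain, had 2746 and 2820 reads across WT against 5596 and 3708 across *Patz1* KO and a log2 fold change of 0.32 (edgeR adjusted p = 0.00492). This call was lost without WT replicate 1 (adjusted p = 0.0633) and without WT replicate 2 (0.131). Its neighbour *Bag3*, a co-chaperone gene, had 120 and 121 reads across WT against 55 and 47 across *Patz1* KO (log2 fold change -1.64, adjusted p = 1.04e-05). *Rasgrf1*, a paternally expressed exchange factor of mature neurons, had 0 and 0 reads across WT against 1 and 1 across *Patz1* KO, so both groups were below the limit of 3 counts, and this depth cannot show a difference.

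Counts of 2 genes in the same library do not depend on how libraries are scaled to each other, so 12 pairs of genes within a domain were also compared as ratios. In 11 of them, the 2 WT libraries and the 2 *Patz1* KO libraries did not overlap, and in 1, *Igf2r* over *Airn*, they did (72.9 and 149 in WT, 206 and 115 in *Patz1* KO). Of single genes tested, 74.2% already did not overlap, so nothing is read from this count. The mean log2 ratio moved by at least 1 in 5 pairs. Such a shift restates the fold changes of the 2 genes given above and is not separate evidence. In *Patz1* KO, *H19* over *Igf2* was higher by 1.32, *Usp29* over *Peg3* by 1.42, *Cdkn1c* over *Kcnq1ot1* by 1.49 and *Gnas* over *Nespas* by 1.71, while *Meg3* over *Dlk1* differed by -1.50. Of these 5, the pairs with *Cdkn1c* and *Nespas* hold genes that were named after their values were seen. The other 6 that did not overlap moved less, for example *Copg2* over *Mest* (0.163 and 0.163 in WT, 0.208 and 0.187 in *Patz1* KO) and *Commd1* over *Zrsr1* (1.99 and 2.21 in WT, 1.51 and 1.59 in *Patz1* KO). With 2 libraries against 2, the smallest 2-sided p of an exact permutation test is 0.333, so no test of a ratio was made.

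**Figure D5:**
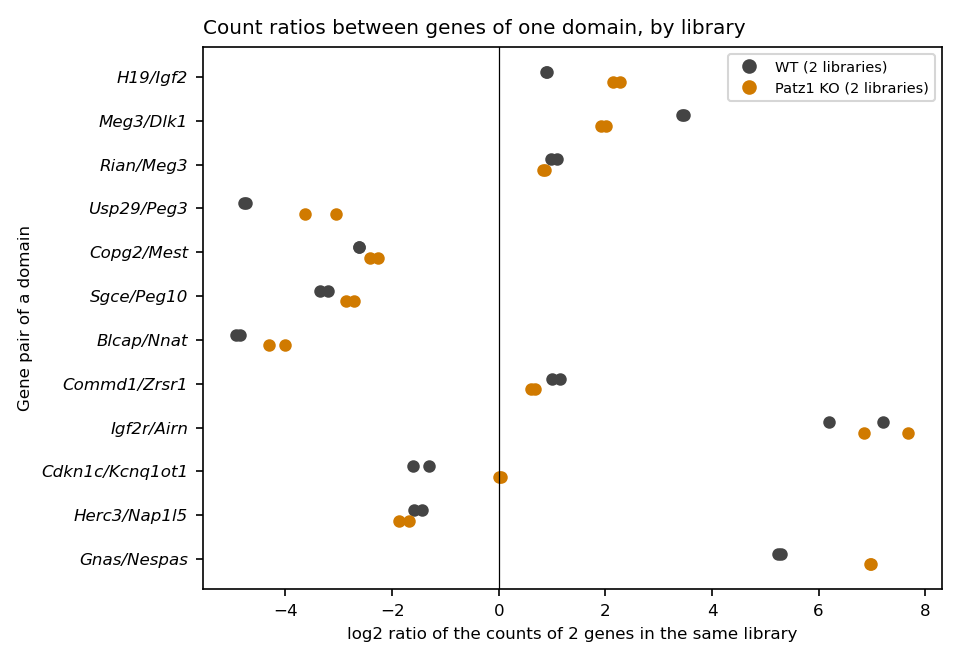
Log2 ratio of the counts of 2 genes of a domain in the same library (x axis) for 12 pairs (y axis), with WT libraries in black and *Patz1* KO libraries in orange. The KO points lie to the right of the WT points for *H19* over *Igf2*, *Usp29* over *Peg3*, *Cdkn1c* over *Kcnq1ot1* and *Gnas* over *Nespas*, and to the left for *Meg3* over *Dlk1*.

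The neighbouring genes of the same domains gave the setting. Of 59 listed, 39 were tested, and 8 were called higher and 11 lower, beside 24.1% and 23.8% in the whole table, with a median log2 fold change of -0.04. The 8 with an absolute log2 fold change of at least 1 were *Begain*, *Cpa4*, *Herc3* and *Fam13a*, which rose, and *Phactr2*, *Bag3*, *Lsp1* and *Npepl1*, which fell. *Lsp1*, a leukocyte gene near *H19*, had 114 and 178 reads across WT against 83 and 50 across *Patz1* KO and a log2 fold change of -1.55 (edgeR adjusted p = 2.25e-05).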

How the data were processed

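RNA-seq of 4 libraries of cervical MNs was used, 2 WT and 2 *Patz1* KO, grouped by the genotype in the labels. According to the study, replicates are separate differentiations, and the labels do not say more. The authors mapped reads to mm10 and deposited raw counts for 23420 gene symbols. The submitters' processing notes name TopHat2 2.1.1, Bowtie2 2.3.1, featureCounts 1.6.2 and DESeq2. The annotation and the strand setting of the counting are not given in the sources used here, so genes whose exons overlap are uncertain.

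Counts were scaled with TMM and tested with edgeR 4.0.16 (limma 3.58.1, R 4.3.3): filterByExpr with a minimum count of 10, the quasi-likelihood test, and Benjamini-Hochberg adjustment over all 14269 genes, called below 0.05. Standard errors (SE) were derived from the F statistic, as the size of the log2 fold change over the root of F. The detection limit was 3 counts per library. DESeq2 1.42.0, the study's test, was an alternative. Positions, exon lengths and overlaps came from GENCODE M21 on GRCm38 (the assembly of mm10), and sequences from RefSeq. Replicate numbers were checked as pairs, and the result is given with the alternatives. Tables and plots were made in Python 3.11.15 with pandas 2.3.3 and matplotlib 3.10.9.

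The imprinted genes, their grouping, the neighbours and the marker lists were chosen with earlier results of these data known. Full statistics are given for genes called with an absolute log2 fold change of at least 0.5, neighbours are named from 1, and microRNA genes from over 10 counts in a library. *Cdkn1c*, *Peg12*, *Nespas*, *Slc22a3*, *Slc38a1*, *Slc38a2*, *Kcnq1*, *Cars*, *Cd81*, *Dhcr7*, *Tssc4*, *Nap1l4*, *Osbpl5*, *Ltv1*, *Sf3b5*, *Snurf* and *Mir376b* were named after their values were seen.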

Additional observations from a re-analysis of the deposited data

How the results depend on the processing

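The 12 alternatives covered scaling (size factors of DESeq2, library size by itself, or TMM after dropping the 20 genes with most reads), filtering (none, or 10 reads needed in each library), the test (DESeq2's Wald test, or edgeR with robust estimation), the replicate number as a block, and fits without each of the 4 libraries. A lone library left in a genotype was assumed to vary like the others. Of the 23 imprinted genes called, 16 were called under each alternative, and the number called went from 18 to 23. Leaving out a library gave 18 to 23 called, 11 to 16 of them higher and 6 or 7 lower, and 4 to 7 maternally expressed genes called, 3 to 6 of them higher. The lowest of these, 4 and 3, came without WT replicate 2. Library size alone gave 20 called, with 13 higher, and DESeq2's Wald test gave 20. No scaling turned the direction of a gene. Reversals came only from leaving out a library and only in genes that were not called: *Rtl1* went from -0.17 without *Patz1* KO replicate 1 to 0.24, *Ube3a* from -0.012 without WT replicate 1 to 0.085, *Zim1* from -0.35 to 0.041 without WT replicate 2 and *Nnat* from -0.064 without *Patz1* KO replicate 2 to 0.17. The cause of these changes was not tested beyond the smaller number of libraries. In the alternatives that kept all 4 libraries, 0 domains held called imprinted genes of both directions. A domain can show both only while at least 2 of its genes are called. With DESeq2's Wald test *Airn* was not called, so *Igf2r*-*Airn* could not show both. The fits without a library are not read for this. There, *Dlk1*-*Dio3* lost *Meg3* and *Rian* without WT replicate 2, and *Igf2r*-*Airn* lost *Airn* without WT replicate 1 or *Patz1* KO replicate 1.

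Same-numbered WT and *Patz1* KO libraries had deviations from their group means that correlated at 0.041, so the numbers were not taken as pairs. With the replicate block, 22 imprinted genes were called, 15 higher and 7 lower, 14 of them paternally and 6 maternally expressed. The same block gave 21 neighbouring genes (8 higher, 13 lower), 39 marker genes and 0 domains with both directions.

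With 2 libraries per genotype, the spread is borrowed across genes. Genes with few counts, such as *Airn*, *Asb4* and the microRNA genes, have large standard errors and uncertain sizes of change. Calls were also lost under alternatives in genes with more counts but small changes. These were *Meg3*, *Rian*, *Mkrn3*, *Ppp1r9a* and *Inpp5f*, all called higher. *Phlda2*, *Ascl2*, *Dio3* and *Rasgrf1* had too few counts for the test.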
